A study of Mus musculus with 9 samples.

Results

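Colon macrophages of mice lacking gp91phox were compared with those of mice lacking p47phox, which are mice deficient in either of 2 different subunits of the same phagocyte NADPH oxidase. The genes followed were all those with a deposited normalized count of at least 10 in at least 3 of the 6 knockout libraries, which kept 13727 of the 42454 genes in the table. Expression was measured by RNA sequencing of lamina propria macrophages sorted from the colon as Ly6C low and MHC class II positive cells. The mice were 6 weeks old, and the 3 groups were WT, p47phox-/- and gp91phox-/-, each with 3 libraries. The labels name no strain, sex, treatment or further allele, and do not say how each gene was disrupted. They also do not say that each library came from its own mouse, so a p-value here measures the spread between these libraries, which may be partly technical.

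The phagocyte NADPH oxidase moves electrons from NADPH across the membrane to oxygen and so makes superoxide. Its membrane core is gp91phox (NOX2, gene Cybb) bound to p22phox (Cyba), and on activation it is joined by cytosolic subunits, among them the organizer p47phox (Ncf1) and p40phox (Ncf4), and by a Rac GTPase. Loss of either gp91phox or p47phox impairs the oxidative burst and underlies chronic granulomatous disease, in which inflammation of the gut is common. Macrophages of the gut lamina propria are renewed largely from blood monocytes, clear bacteria and dying cells, and are known for a muted inflammatory response.

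The 9 libraries held 31141107 to 52797368 reads on genes. The 3 gp91phox-/- libraries detected 18115 to 18760 genes, and the WT libraries 15825 to 17280. Among the p47phox-/- libraries, replicate 1 detected 17754 genes while replicates 2 and 3 detected 14323 and 14268. Replicates 2 and 3 listed 672 (4.9%) and 620 (4.52%) of the 13727 genes at 0, where the other libraries listed 36 to 257. On the first principal component, which held 32.9% of the variance, the gp91phox-/- libraries lay at 63 to 71.8 and all other libraries at -74.5 to -9.6. The second component held 21.4% and separated p47phox-/- replicate 2, at -92.4, from replicate 3, at 78.4. These 2 libraries therefore stand apart from each other and from replicate 1, and counts are given with and without them. No pair of libraries correlated above 0.9798 (Pearson, across genes, log2 scale), so none was a duplicate. Every gene of chromosomes X (1362 genes) and Y (190) and of the mitochondrial genome (24) was listed at 0 in all 9 libraries.

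Ncf1 itself, the gene for p47phox, separated the 2 knockouts clearly and in the direction of their labels. Its normalized count was 2718, 3733 and 3133 in the p47phox-/- libraries and 13617, 12136 and 13365 in the gp91phox-/- libraries, with 10066, 8989.8 and 10815 in WT. All gp91phox-/- values lay above all p47phox-/- values, and the transcript was still present in p47phox-/- cells. The difference was the smallest adjusted p among genes higher in gp91phox-/- cells (log2 fold change 2.04 ± 0.14 (SE), adjusted p = 4.22e-06). Here and below, a log2 fold change is gp91phox-/- minus p47phox-/- on the scale log2(normalized count + 1), taken between means of logs. For low genes it can understate the change, and it can overstate it where some libraries of a group are at or near 0. Adjusted p comes from limma with Benjamini-Hochberg adjustment over all 13727 genes. Where a bare number stands before an adjusted p in parentheses, it is that log2 fold change. Normalized counts are given for replicates 1, 2 and 3, with p47phox-/- before gp91phox-/- where 1 set is put against the other. Ncf1 lies on chromosome 5 and overlaps the gene model LOC115490142, from which its reads may not be fully separable. Cybb, which encodes gp91phox, lies on the X chromosome and is listed at 0 everywhere, so the gp91phox-/- label could not be checked on its own gene.

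Most other oxidase subunits overlapped between the knockouts. Cyba, the partner of gp91phox in the membrane, gave 9829, 16098 and 12066 in p47phox-/- and 11614, 14001 and 13398 in gp91phox-/- libraries, which overlap (log2 fold change 0.06, adjusted p = 0.843). Ncf4, whose p40phox product binds phosphoinositides, had a log2 fold change of -0.04 (adjusted p = 0.898), Rac2 of 0.08 (0.748) and Rac1 of 0.09 (0.653). Cybc1, the chaperone that supports assembly of gp91phox with p22phox, gave 1742, 2311 and 1954 against 3336, 2759.7 and 2396, groups that do not overlap but miss the threshold (0.50, adjusted p = 0.0556). Of the 10 measured genes in a list of oxidase subunits and relatives, Ncf1 alone was called, and the low members Noxo1, Noxa1 and Duox2 were not.

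Across all 13727 genes, 1459 (10.6%) were called at an adjusted p under 0.05. Of these, 583 (4.25%) were higher and 876 (6.38%) lower in gp91phox-/- than in p47phox-/- macrophages, and 12268 were not called. Counts of called list members from this fit are to be read against these 4.25% and 6.38%. The median log2 fold change over all genes was 0.02, so the centre of the distribution hardly moved. The 3 libraries of one knockout lay wholly above the 3 of the other for 4351 genes (31.7%), 1909 (13.9%) with gp91phox-/- higher and 2442 (17.8%) with it lower. Changes downwards were larger as well as more numerous: 500 lower genes changed over 2-fold and 125 over 16-fold, against 223 and 19 higher genes. Without p47phox-/- replicates 2 and 3 there were 433 calls (3.15%), of which 132 (0.962%) were higher and 301 (2.19%) lower, and 394 of the 433 were also among the 1459; that fit assumes that the lone p47phox-/- library varies like the other groups. Leaving out p47phox-/- replicate 1 instead gave 853 higher and 812 lower calls, which turns the balance of directions, and gp91phox-/- replicate 2 was the library whose loss cost most calls, leaving 769.

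**Figure D1:**
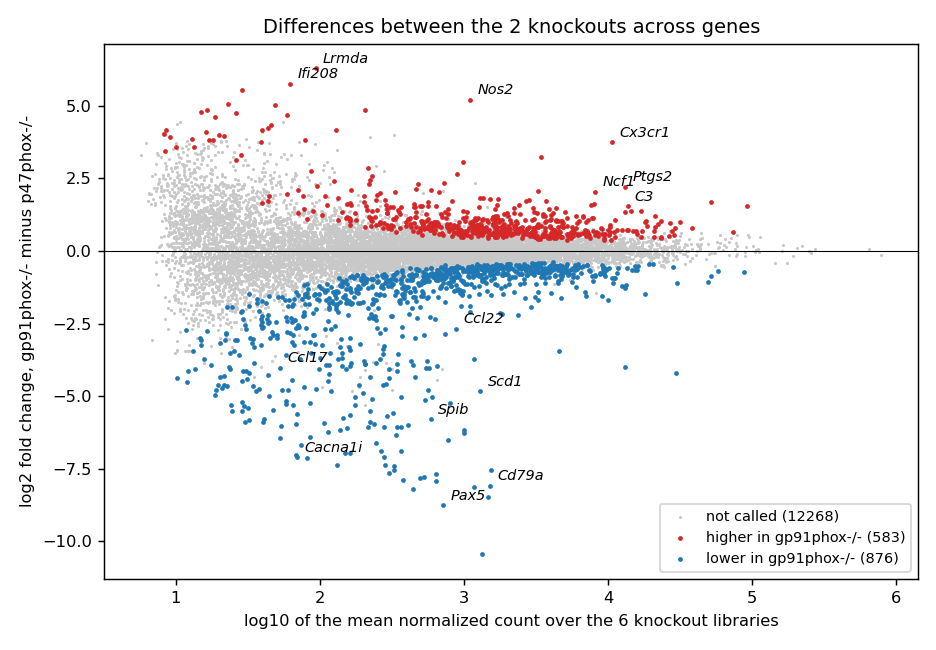
Each point is 1 of the 13727 genes, with log10 of its mean normalized count over the 6 knockout libraries on the x axis and its log2 fold change, gp91phox-/- minus p47phox-/-, on the y axis; red points are the 583 genes called higher and blue points the 876 called lower. The B cell genes Pax5 and Cd79a sit at the bottom with log2 fold changes of -8.77 and -8.09, and Nos2 near the top at 5.21.

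The dominant difference was a set of B cell transcripts, present in p47phox-/- and WT libraries and nearly missing from gp91phox-/- libraries. Cd79a, the signalling chain of the B cell receptor, read 2412, 4439 and 2219.8 in p47phox-/-, 5.46, 10.3 and 15.2 in gp91phox-/- and 2892, 5299 and 2729 in WT libraries. Every gp91phox-/- library was far below every p47phox-/- library, and the p47phox-/- values lay within the WT range or just below it (log2 fold change -8.09 ± 0.37 (SE), adjusted p = 2.81e-07). Counting reads, the p47phox-/- level was 294 times that of gp91phox-/- (95% counting interval 216 to 412; such intervals cover counting error only). Pax5, the transcription factor that fixes B cell identity, read 1576, 1674 and 1037 against 0, 1.81 and 10.7, a ratio of 372 (226 to 666). For both Cd79a and Pax5 replicate 3 was the highest gp91phox-/- library and still far under the lowest p47phox-/- value.

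Of a list of 30 B cell identity genes, all of which were measured, 27 fell, none rose and the median log2 fold change was -5.18, against 0.02 over all genes. Without p47phox-/- replicates 2 and 3, 23 of the 30 fell. The summed normalized count of the list was 53209 to 75886 in p47phox-/-, 24583 to 30508 in gp91phox-/- and 60352 to 79498 in WT libraries. The depth of the difference varied within the list. Genes largely restricted to B cells were close to 0 in gp91phox-/-: Ms4a1, which encodes CD20, read 539.7, 919 and 502 against 0, 4.22 and 6.26 (log2 fold change -7.55 ± 0.67 (SE), adjusted p = 3.12e-05). Fcmr, the IgM Fc receptor, read 946, 1236 and 955 against 5.46, 1.81 and 4.47 (log2 fold change -7.81 ± 0.36 (SE), adjusted p = 2.81e-07), and Vpreb3 was at 0 in all 3 gp91phox-/- libraries, or at least 77.2-fold lower when the group is given a floor of 3 reads in all.

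Other members kept a sizeable level in gp91phox-/- cells. Ighm, the IgM heavy chain, read 11727, 11707 and 8139 against 4257, 3738 and 2858 (log2 fold change -1.54 ± 0.22 (SE), adjusted p = 0.00112). Cd22, an inhibitory sialic acid lectin, read 2817, 3468 and 3111 against 2059, 1962 and 1455, a far smaller step (log2 fold change -0.79 ± 0.15 (SE), adjusted p = 0.00612). Blnk, an adaptor of the B cell receptor that macrophages also use, read 4691, 4756 and 4788 against 1925, 1917 and 1506 (log2 fold change -1.42 ± 0.14 (SE), adjusted p = 5.82e-05). In each of these 3 the groups did not overlap. The 3 members that did not pass were Pou2f2 (-0.59, adjusted p = 0.0573), Ralgps2 (-0.37, adjusted p = 0.225) and Cd72 (0.36, adjusted p = 0.346), a receptor that macrophages also carry.

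Further transcription factors and receptors of the B lineage on the list were among those that fell. Spib, an ETS factor, read 1245, 1323 and 916 against 23.7, 16.3 and 19.7 (log2 fold change -5.80 ± 0.27 (SE), adjusted p = 2.81e-07). Pou2af1, the coactivator OBF-1, read 1776, 1408 and 1503 against 51, 40.4 and 31.3 (log2 fold change -5.24 ± 0.29 (SE), adjusted p = 1.62e-06). Tnfrsf13c, the BAFF receptor that mature B cells need to survive, read 488, 718 and 375 against 2.73, 4.83 and 2.68 (log2 fold change -6.89 ± 0.40 (SE), adjusted p = 1.62e-06). No library of one knockout reached the range of the other for any of them. Ebf1 (-5.02, adjusted p = 1.69e-05), Blk (-7.93, adjusted p = 6.89e-06), Cr2 (-7.38, adjusted p = 2.61e-05), Fcer2a (-7.69, adjusted p = 2.43e-06), Ly6d (-6.97, adjusted p = 1.82e-05) and Cxcr5 (-5.58, adjusted p = 3.95e-06) fell likewise. Fcer2a overlaps Trappc5 and Cxcr5 overlaps Bcl9l, and the labels do not name the strand counted.

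Outside the B cell and plasma cell lists, the largest falls were again of transcripts near 0 in gp91phox-/- libraries. Cacna1i, a T-type calcium channel, read 128, 149 and 136 against 0, 0 and 0, or at least 178-fold lower with the same floor. Chst3, a chondroitin sulfotransferase, read 746, 607 and 442 against 0.91, 1.81 and 3.58 (log2 fold change -7.65 ± 0.44 (SE), adjusted p = 1.62e-06), and Ccr6, the receptor for CCL20, read 609, 770.2 and 276 against 4.55, 0.603 and 4.47 (log2 fold change -7.12 ± 0.57 (SE), adjusted p = 1.56e-05). All 3 genes had WT levels of the p47phox-/- order, with WT means of 349.7, 729.7 and 629.7. Dtx1 (log2 fold change -6.08), Nuggc (-6.04), Lax1 (-5.52), Chst10 (-5.30), Zfp831 (-5.29), Rasal1 (-5.19) and Cpm (-5.10) complete the 10 largest, with adjusted p from 6.34e-06 to 4.62e-04. Ikzf3, the lymphoid factor Aiolos, chosen after its values were seen, read 1561, 1037 and 915 against 19.1, 44.6 and 45.6 (log2 fold change -5.03 ± 0.38 (SE), adjusted p = 1.09e-05). The Gimap family, GTPases of lymphocytes, was also chosen after its values were seen. All 8 of its measured genes were called lower, with a median log2 fold change of -3.39, where 6.38% of all genes fell. Over all 13727 genes, 31 held at least 50 in every p47phox-/- library and under 10 in every gp91phox-/- library. Of these 31, 12 were immunoglobulin or T cell receptor segments and 5 were on the B cell list. The opposite was seen for 1 gene, Ifi208.

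Plasma cell transcripts were also lower in gp91phox-/- libraries, but with more spread within p47phox-/-. Igha, the heavy chain of the IgA that plasma cells of the gut secrete, read 82375, 21649 and 63944 in p47phox-/-, 2525, 5292 and 1403 in gp91phox-/- and 75935, 185267 and 56997 in WT libraries. The groups did not overlap, and p47phox-/- replicate 2 was the lowest of its group (log2 fold change -4.19 ± 0.57 (SE), adjusted p = 8.56e-04). Jchain, which joins IgA dimers, read 11773, 4992 and 8226 against 618, 1521 and 404 (log2 fold change -3.44 ± 0.50 (SE), adjusted p = 0.00128), and Mzb1, a plasma cell chaperone, read 551, 326 and 274 against 14.6, 44.6 and 20.6 (log2 fold change -3.89 ± 0.52 (SE), adjusted p = 8.38e-04). Of 15 measured plasma cell genes 8 (53.3%) fell and none rose (median -1.73), where 6.38% of all genes fell. The median of these genes was -2.39 without p47phox-/- replicates 2 and 3. Their summed level was 60212 to 152657 in p47phox-/-, 23268 to 30402 in gp91phox-/- and 106591 to 303422 in WT libraries. Xbp1 (-0.11, adjusted p = 0.598) and Sdc1 (0.34, adjusted p = 0.584), which macrophages also express, were not called.

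Immunoglobulin gene segments and constant regions gave 118 measured genes, of which 65 were called lower and none higher (median -4.16). Their summed count was 68073 to 191258 in p47phox-/-, 6450 to 15849 in gp91phox-/- and 131532 to 410661 in WT libraries. Reads may be shared among near-identical segments, so single segments are not described. The sort gate was set on Ly6C and MHC class II, and MHC class II is also carried by B cells and dendritic cells. In bulk RNA, fewer cells of a type and less RNA per cell cannot be told apart, and how far these B lineage transcripts take part in any other difference below was not tested.

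**Figure D2:**
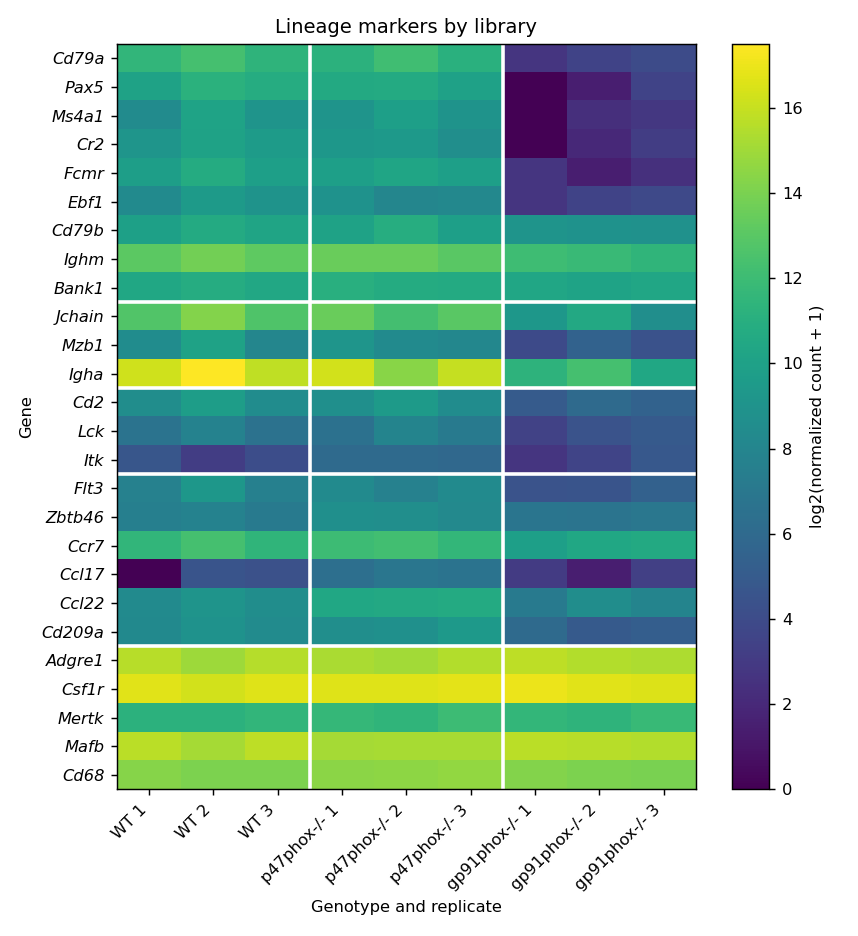
Each cell of the map gives log2(normalized count + 1) of 1 gene (rows) in 1 library (columns), with white lines between genotypes and between markers of B cells, plasma cells, T cells, dendritic cells and macrophages. The gp91phox-/- columns are dark for Cd79a, Pax5, Ms4a1, Cr2 and Fcmr, while Csf1r and Adgre1 are bright in all 9 libraries.

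Dendritic cell transcripts fell in part. Flt3, the growth factor receptor of dendritic cell precursors, read 326, 201 and 338 against 20.9, 22.3 and 42.9 (log2 fold change -3.32 ± 0.46 (SE), adjusted p = 9.06e-04). Cd209a, the DC-SIGN lectin of a dendritic cell subset, read 400.4, 433 and 684 against 66.4, 29.6 and 35.8 (log2 fold change -3.54 ± 0.34 (SE), adjusted p = 5.48e-05). Ccr7, the receptor that leads dendritic cells to lymph nodes, read 4145, 4673 and 3143 against 944, 1355 and 1579 (log2 fold change -1.64 ± 0.25 (SE), adjusted p = 0.00182). The gp91phox-/- libraries were all lower, without overlap, for these 3 genes. Ccl22 (-2.68, adjusted p = 3.13e-04) and Zbtb46 (-1.70, adjusted p = 0.00129), a factor of classical dendritic cells, fell as well, and so did Itgae (-3.13, adjusted p = 0.00142), which overlaps Haspin. Of 18 conventional dendritic cell genes 9 (50%) fell and none rose (median -0.73), where 6.38% of all genes fell, and 6 fell without p47phox-/- replicates 2 and 3. Of genes used as markers of the cross-presenting subset, Xcr1, Clec9a and Irf8 were not called, while Itgae fell as given above. Xcr1 read 47.8, 1.76 and 19.1 against 19.1, 18.7 and 34.9, and Clec9a 99, 112 and 26.7 against 26.4, 62.1 and 28.6. Irf8 read 8427, 13279 and 8560.0 against 10964, 11354 and 10613. Xcr1 and Clec9a were low in both knockouts, so these values do not show whether that subset was spared. The summed level of the list was 29454 to 36532 in p47phox-/- and 23409 to 24523 in gp91phox-/- libraries. Of 11 plasmacytoid dendritic cell genes 3 fell, among them Siglech (712, 1124 and 846 against 460.4, 439 and 409; -1.01, adjusted p = 0.00891) and Ly6d, which the B cell list also holds.

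T cell and innate lymphoid transcripts were low in both knockouts. Cd2, an adhesion molecule of lymphocytes, read 415, 739 and 359 against 30.9, 65.2 and 44.7 (log2 fold change -3.39 ± 0.40 (SE), adjusted p = 3.08e-04), and Lck, a kinase of the T cell receptor, 90.6, 241 and 146 against 10, 21.7 and 30.4 (log2 fold change -2.90 ± 0.51 (SE), adjusted p = 0.00398). Il22, a cytokine of innate lymphoid and T cells chosen after its values were seen, read 156, 151 and 54.3 in p47phox-/-, 0.91, 3.02 and 15.2 in gp91phox-/- and 19.9, 52.9 and 39.3 in WT libraries (log2 fold change -4.46 ± 0.80 (SE), adjusted p = 0.00459). The knockout groups did not overlap for Il22, and all 3 WT libraries lay between them. Of 16 measured members of the list 4 (25%) fell and 1 (6.25%), the chemokine gene Ccl5, rose, against 6.38% and 4.25% of all genes. The list median was -1 on the log2 scale, and -0.9 without p47phox-/- replicates 2 and 3. Cd3e did not pass the filter, and the 3 measured T cell receptor segments were not called. The summed level of the T cell and innate lymphoid list overlapped, at 3894 to 4459 in p47phox-/- and 2849 to 5390 in gp91phox-/- libraries.

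Fibroblast, endothelial and epithelial markers were present at low to moderate levels. Of 18 fibroblast and smooth muscle genes 4 fell (median -0.44), with Fbln1, an extracellular matrix protein, at 546, 631 and 668 against 204, 240.1 and 242 (log2 fold change -1.42 ± 0.21 (SE), adjusted p = 0.00154). The summed level of that list was 15493 to 24498 in p47phox-/- and 12929.6 to 15382 in gp91phox-/- libraries. None of 14 endothelial genes was called (median -0.45). Of 18 colon epithelial genes 3 (16.7%) rose (median 1.03), against 4.25% of all genes: Cdh1, which encodes E-cadherin, read 41.1, 51.9 and 41.9 against 237, 133 and 150.3 (log2 fold change 1.88 ± 0.37 (SE), adjusted p = 0.00762), and Krt20 and Slc26a3 read 6.71, 31.7 and 40 against 186, 127 and 131 and 0, 0 and 13.3 against 174, 56.7 and 47.4. The summed epithelial level overlapped between the groups, at 1312 to 4252 in p47phox-/- and 3066 to 6862 in gp91phox-/- libraries, and Epcam (0.68, adjusted p = 0.19) and Krt8 (0.95, adjusted p = 0.23) were not called. Only 5 of 16 neutrophil genes passed the filter, S100a8, S100a9 and Ly6g not among them, and none was called. Of 4 mast cell, basophil and eosinophil genes Hdc, which makes histamine, rose (1.99, adjusted p = 0.0307), and of 7 glial and neuronal genes Gfap fell (-2.79, adjusted p = 0.0168). Some of these calls ended without 1 library: Krt20 (without p47phox-/- replicate 1, any gp91phox-/- library), Slc26a3 (without gp91phox-/- replicate 1), Hdc (without p47phox-/- replicate 1 or 2, gp91phox-/- replicate 2 or 3), Gfap (without gp91phox-/- replicate 1).

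Genes of macrophage identity were abundant in both knockouts. Csf1r, the receptor for the growth factor CSF1, read 101332, 102735 and 113989.6 in p47phox-/- and 128474, 109681 and 98785 in gp91phox-/- libraries, which overlap (log2 fold change 0.08 ± 0.17 (SE), adjusted p = 0.81). Adgre1, which encodes F4/80, read 40112, 34709 and 45863 against 56194, 45955 and 42285 (0.26, adjusted p = 0.441), and Mertk, a receptor for dying cells, 3298, 2827 and 4109 against 3024, 2698 and 3499 (-0.14, adjusted p = 0.615). These values are near the WT means of 97203, 43659 and 2577. Of 16 identity genes 2 (12.5%) rose and 1 (6.25%) fell (median 0.14), against 4.25% and 6.38% of all genes. They were Itgam, the integrin CD11b (0.79, adjusted p = 0.0353), Fcgr1, the high-affinity IgG receptor (0.62, adjusted p = 0.0263), and Cd68 (-0.46, adjusted p = 0.0435). These 3 calls were fragile to the loss of 1 library: Itgam (without WT replicate 1, p47phox-/- replicate 2, any gp91phox-/- library), Fcgr1 (without p47phox-/- replicate 1 or 3, any gp91phox-/- library), Cd68 (without WT replicate 3, p47phox-/- replicate 2 or 3, gp91phox-/- replicate 2 or 3). The gate genes H2-Aa (0.16, adjusted p = 0.681) and Ly6c2 (-0.69, adjusted p = 0.362) were not called, and Ly6c2 varied among gp91phox-/- libraries, at 114, 259 and 484.

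Among 30 genes of mature resident gut macrophages, 2 (6.67%) rose and 3 (10%) fell (median 0.04), near the 4.25% and 6.38% of all genes. Cx3cr1, the fractalkine receptor by which these cells are usually recognized, read 598, 5056 and 899 in p47phox-/-, 24878, 17832 and 14745 in gp91phox-/- and 4995, 4059.8 and 5542 in WT libraries. All gp91phox-/- libraries exceeded all others, and p47phox-/- replicate 2 was the only one of its group at the WT level (log2 fold change 3.74 ± 0.58 (SE), adjusted p = 0.0018). In the other direction, Cbr2, a carbonyl reductase, read 11339, 13146 and 16323 against 5497, 4014 and 4402 (log2 fold change -1.55 ± 0.17 (SE), adjusted p = 1.56e-04). Folr2, a folate receptor of resident macrophages, read 7449.9, 8047 and 9569.9 against 4151, 3495 and 3042 (log2 fold change -1.23 ± 0.16 (SE), adjusted p = 7.27e-04), and Fcna, ficolin A, 6631, 5571 and 9235 against 2809.7, 2670.5 and 1542 (log2 fold change -1.63 ± 0.26 (SE), adjusted p = 0.00226). For these 3 genes the p47phox-/- libraries were high, since the WT means were 5409, 3602 and 2709. Lyve1, listed with endothelial and resident macrophage markers, read 8092, 3912 and 10024 against 3358, 2358 and 4989.7 and was not called (adjusted p = 0.0874).

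Genes of monocytes and their early progeny split, with 6 of 23 higher and 6 lower (median 0.09). That is 26.1% each way, against 4.25% and 6.38% of all genes. Thbs1, thrombospondin 1, was the most abundant called gene and read 49319.9, 36643 and 52183 against 131657, 109175 and 170015, with 138703, 172202 and 153434 in WT (log2 fold change 1.57 ± 0.20 (SE), adjusted p = 6.84e-04). Ccr2, the receptor that brings monocytes out of the marrow, read 2233, 1939 and 2961 against 7397, 4421 and 5875 (log2 fold change 1.30 ± 0.27 (SE), adjusted p = 0.00925). Treml4 rose as well (1.52, adjusted p = 0.00303). Napsa, an aspartic protease, fell from 1093, 1824 and 1040.3 to 501, 483 and 553 (log2 fold change -1.32 ± 0.23 (SE), adjusted p = 0.00398), and Ace, the angiotensin-converting enzyme, fell too (-1.79, adjusted p = 0.00993). None of these 5 genes overlapped between the knockouts.

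The largest rises in gp91phox-/- cells were a mixed group. Nos2, the inducible nitric oxide synthase, read 34.4, 22.9 and 51.4 in p47phox-/- and 289, 1723 and 4513 in gp91phox-/- libraries, with 95.3, 68.3 and 88.7 in WT. It was higher in all 3 gp91phox-/- libraries but spread widely among them (log2 fold change 5.21 ± 0.74 (SE), adjusted p = 0.00114). Fpr1, a receptor for bacterial formyl peptides, read 295, 309 and 132 against 944, 1403 and 2243 (log2 fold change 2.64 ± 0.37 (SE), adjusted p = 0.00114), and its relative Fpr2, chosen after its values were seen, 494, 663 and 507 against 1146, 2048 and 3236 (log2 fold change 1.84 ± 0.30 (SE), adjusted p = 0.00248). Inhba, the activin A subunit, read 261, 73 and 199 against 439, 1490.3 and 3414 (log2 fold change 3.06 ± 0.63 (SE), adjusted p = 0.00967), without overlap and again highest in replicate 3. Among the 223 genes called higher by over 2-fold, gp91phox-/- replicate 3 was the highest library for 104 (46.6%), against 34.5% of all 13727 genes.

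Several of the largest rises rest on values at or near 0 in p47phox-/- libraries. Lrmda, a melanosome-related gene, read 11.8, 0 and 0 against 182, 182 and 185, a ratio of 44.1 (26.1 to 81.1), with a WT mean of 107 (log2 fold change 6.30 ± 0.83 (SE), adjusted p = 7.36e-04). Ifi208, a member of the interferon-inducible PYHIN family, read 4.2, 0 and 0.953 against 95.5, 92.9 and 179, a ratio of 66.7 (30.4 to 183; log2 fold change 5.76 ± 0.70 (SE), adjusted p = 4.09e-04). Aqp4, a water channel, read 5.04, 11.4 and 0 against 159, 79.6 and 99.3 (4.69, adjusted p = 0.00976). Muc3, Rab44 and Myh14 read 10.9, 102 and 0 against 677, 259 and 175, 76.4, 0 and 14.3 against 96.4, 165 and 421 and 16.8, 0 and 39.1 against 232, 97.1 and 85, and these calls were fragile: Muc3 (without p47phox-/- replicate 1 or 3, any gp91phox-/- library), Rab44 (without any WT library, p47phox-/- replicate 2 or 3, any gp91phox-/- library), Myh14 (without any WT library, p47phox-/- replicate 1 or 2, any gp91phox-/- library). Of the 583 genes called higher, 30 (5.15%) were at 0 in p47phox-/- replicate 2 or 3, against 8.11% of all genes. At 0 in both replicates 2 and 3 were 22 of the 583, a larger share than the 179 of all 13727 genes. Without those 2 libraries the adjusted p of Lrmda was 0.00124, of Ifi208 0.00362 and of Aqp4 0.0515.

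The most uniform rises were in genes of high expression with tight replicates. Ccrl2, a non-signalling receptor that presents chemerin, read 9338, 9611 and 9420.3 against 24573, 25082 and 23670.2, and the WT mean was 9421 (log2 fold change 1.37 ± 0.12 (SE), adjusted p = 2.36e-05). C3, the central complement component, read 7031, 6392 and 7608 against 19465, 20738 and 20674, with a WT mean of 13377 (log2 fold change 1.54 ± 0.13 (SE), adjusted p = 2.96e-05). Gcnt2, which branches glycans into I antigen, read 1128, 1462 and 1232 against 4478, 4543 and 3992 (log2 fold change 1.77 ± 0.16 (SE), adjusted p = 4.49e-05), and Mxd1, a repressor partner of MAX, 8164, 7941 and 7835 against 21757, 20964 and 20171 (log2 fold change 1.39 ± 0.13 (SE), adjusted p = 5.41e-05). None of these 4 genes had overlapping groups, and within gp91phox-/- cells the libraries differed by little. All 4 held an adjusted p under 0.05 without p47phox-/- replicates 2 and 3, from 0.00283 to 0.00785.

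Il1b, Il1a, Il1rn and the inflammasome sensor gene Nlrp3 were higher in gp91phox-/- cells. Il1b, the secreted cytokine IL-1β, read 21713, 34221 and 19032 in p47phox-/-, 59037, 77117 and 100791 in gp91phox-/- and 25126, 28169 and 26070.0 in WT libraries. The lowest gp91phox-/- library exceeded every other library (log2 fold change 1.67 ± 0.23 (SE), adjusted p = 9.33e-04). Il1a, the membrane-bound relative, read 4068, 3945 and 3834 against 5788, 8903 and 13528 (log2 fold change 1.17 ± 0.24 (SE), adjusted p = 0.00989), and the receptor antagonist Il1rn 12746, 10669.9 and 11897 against 18258, 27239 and 28443 (log2 fold change 1.04 ± 0.17 (SE), adjusted p = 0.00228). Nlrp3, the sensor that activates caspase 1, read 22283, 15328 and 17769.8 against 29759, 38154 and 39413 (log2 fold change 0.96 ± 0.18 (SE), adjusted p = 0.00509). Il18bp, which neutralizes IL-18, and Osm, oncostatin M, rose by 1.19 and 0.62 on the log2 scale (adjusted p = 0.0047 and 0.0142). Of 27 measured cytokine and inflammasome genes these 6 (22.2%) rose and none fell (median 0.48), against 4.25% and 6.38% of all genes. The summed level of the list was 85869.7 to 103408 in p47phox-/- and 149244 to 229384 in gp91phox-/- libraries.

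Other inflammatory cytokines were not called. Tnf read 7533, 9494 and 8609 against 7115, 10897 and 13181 (0.24, adjusted p = 0.488), Il6 60.4, 88.8 and 89.6 against 35.5, 144 and 270.1 (0.51, adjusted p = 0.625) and Il12b 274, 391 and 306 against 202, 475 and 157 (-0.37, adjusted p = 0.601), all with overlapping groups. Casp1 (0.11, adjusted p = 0.681), Gsdmd (0.31, adjusted p = 0.125) and Il18 (0.25, adjusted p = 0.475), which act downstream of the inflammasome, did not pass either. Without p47phox-/- replicates 2 and 3, 2 of the 27 genes were called higher, Il1b (adjusted p = 0.00876) and Osm (0.0454), and the adjusted p of Il1a, Il1rn, Nlrp3 and Il18bp were 0.155, 0.0814, 0.159 and 0.0697.

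Several prostaglandin and arginine enzymes were higher as well. Ptgs2, the inducible cyclooxygenase 2, read 5826, 3455 and 4202 against 13127, 21185 and 30961, with 3699.9, 4751 and 4687 in WT (log2 fold change 2.22 ± 0.27 (SE), adjusted p = 4.19e-04). Pla2g4a, the phospholipase that releases arachidonic acid, read 813, 673 and 733 against 1297, 1627 and 1959.9 (log2 fold change 1.12 ± 0.18 (SE), adjusted p = 0.00216), and Pla2g7, which degrades platelet-activating factor, 13347, 17885 and 14277 against 28491, 29672 and 28673 (log2 fold change 0.94 ± 0.14 (SE), adjusted p = 0.00134). Each had no overlap between the knockouts. These 3 were the only calls among 18 eicosanoid genes (median 0.11). Of 12 arginine genes 2 rose, Nos2 and Arg2, the mitochondrial arginase, at 237, 325 and 125 against 651, 937 and 1242 (log2 fold change 2.09 ± 0.34 (SE), adjusted p = 0.00247), and Srm fell (-0.65, adjusted p = 0.0427). Acod1, which makes itaconate and was chosen after its values were seen, read 1324, 742 and 1034 against 1586, 4684 and 10361 (log2 fold change 2.08 ± 0.49 (SE), adjusted p = 0.0192). Call losses without 1 library were Srm (without WT replicate 3, p47phox-/- replicate 2 or 3, any gp91phox-/- library), Acod1 (without p47phox-/- replicate 2 or 3, gp91phox-/- replicate 2).

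**Figure D3:**
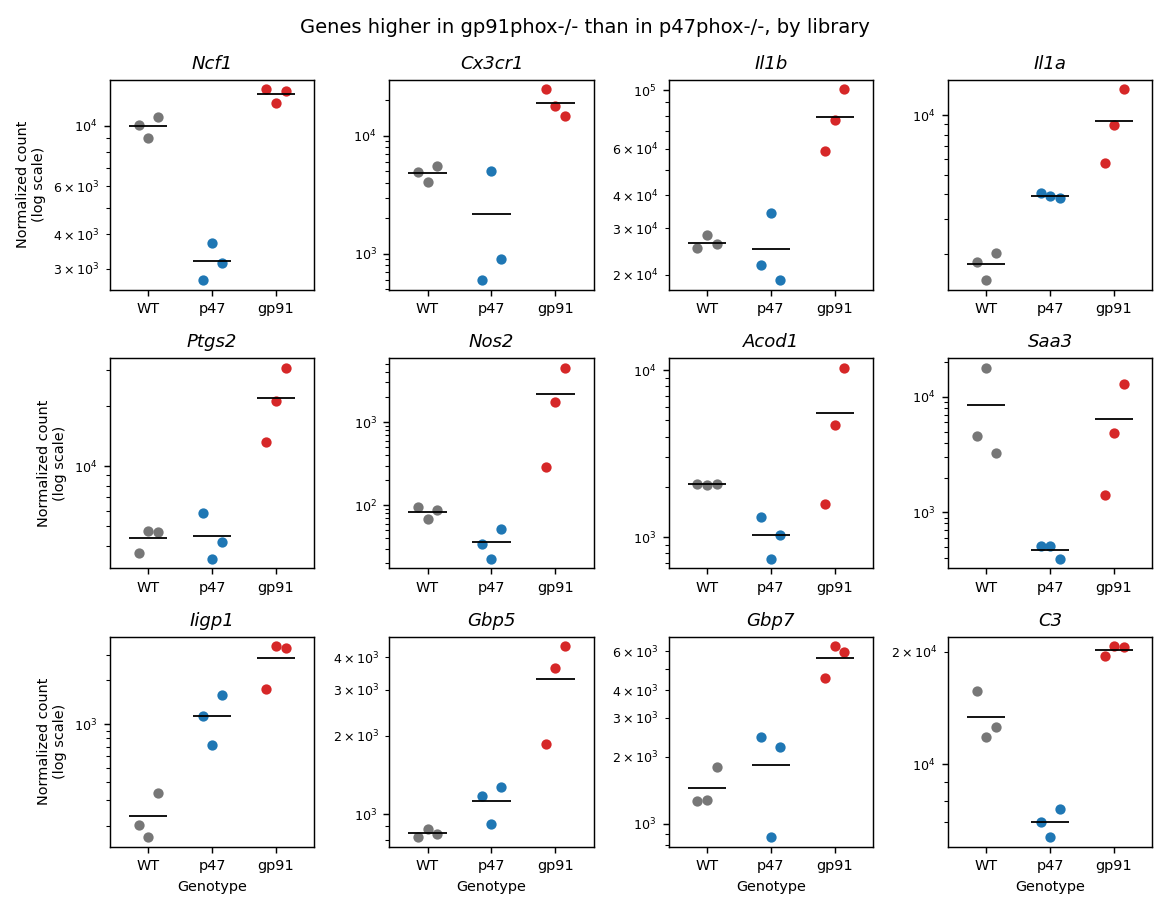
Points are single libraries, with the normalized count on a log axis for each gene and the 3 genotypes side by side, and each horizontal line is the mean of the 3 linear values. Nos2 in gp91phox-/- libraries spans 289, 1723 and 4513, whereas C3 is nearly constant in them at 19465, 20738 and 20674.

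Of the interferon-inducible GTPases of the IRG and GBP families, which attack vacuoles that hold microbes, 11 of 17 measured genes rose. Gbp7 read 2452, 869.5 and 2219 in p47phox-/- and 4559, 6327 and 5960.3 in gp91phox-/- libraries, with a WT mean of 1446 (log2 fold change 1.73 ± 0.32 (SE), adjusted p = 0.00572). Gbp5, which promotes inflammasome assembly, read 1177, 916 and 1273 against 1863, 3645 and 4422 (log2 fold change 1.48 ± 0.26 (SE), adjusted p = 0.00396), and Irgm2, a regulator of the other IRG proteins, 522, 394 and 501 against 883, 1046 and 1166 (log2 fold change 1.13 ± 0.18 (SE), adjusted p = 0.00209). These groups did not overlap, and gp91phox-/- replicate 1 was the lowest of its group for all 3. None of the 17 fell (median 1.17), and 4.25% of all genes rose. The others called were Gbp8 (1.30, adjusted p = 0.0038), Gbp6 (1.17, adjusted p = 0.00545), Gbp3 (0.84, adjusted p = 0.00367), Gbp4 (1.20, adjusted p = 0.0125), Gbp2b (1.33, adjusted p = 0.02), Igtp (0.78, adjusted p = 0.0133), Tgtp2 (1.55, adjusted p = 0.0307) and Iigp1 (1.31, adjusted p = 0.0306). Not called were Irgm1 (0.76, adjusted p = 0.0537), Ifi47 (0.89, adjusted p = 0.0631), Tgtp1 (1.30, adjusted p = 0.161), Gbp2 (0.60, adjusted p = 0.206), Gbp9 (0.29, adjusted p = 0.404) and Gbp10 (-0.43, adjusted p = 0.817).

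The summed level of the GTPase list was 16205 to 19331 in WT, 19686 to 25665 in p47phox-/- and 34742 to 55944 in gp91phox-/- libraries. Tgtp1 and Tgtp2 are near-identical copies and several Gbp genes are close paralogs, so the split of reads among them is uncertain. Without p47phox-/- replicates 2 and 3, 3 of the 17 were called: Gbp7, Gbp3 and Irgm2, with adjusted p of 0.0407, 0.0471 and 0.0478. Leaving out 1 library ended some of these calls: Gbp4 (without gp91phox-/- replicate 2 or 3), Gbp2b (without p47phox-/- replicate 3, gp91phox-/- replicate 2), Igtp (without gp91phox-/- replicate 2 or 3), Tgtp2 (without p47phox-/- replicate 2, gp91phox-/- replicate 2 or 3), Iigp1 (without p47phox-/- replicate 1 or 2, gp91phox-/- replicate 2 or 3).

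The promoters of 3 of the 11 GTPase genes that rose are shown, since the family is known for induction by interferons through short elements near the start. The sequences below run 5′ to 3′ on the gene's strand from 250 bases before to 50 after the start, from RefSeq on GRCm38.p6, with capitals marking each match of GAAANNGAAA, the core of the interferon-stimulated response element (ISRE), and of TTCNNNGAA, the gamma-activated site (GAS) of interferon-gamma targets. Both strands were searched. Irgm2 lies at chr11:58214727-58215026 on the plus strand, Tgtp2 at chr11:49064163-49064462 on the minus strand and Gbp7 at chr3:142530086-142530385 on the plus strand.
Irgm2: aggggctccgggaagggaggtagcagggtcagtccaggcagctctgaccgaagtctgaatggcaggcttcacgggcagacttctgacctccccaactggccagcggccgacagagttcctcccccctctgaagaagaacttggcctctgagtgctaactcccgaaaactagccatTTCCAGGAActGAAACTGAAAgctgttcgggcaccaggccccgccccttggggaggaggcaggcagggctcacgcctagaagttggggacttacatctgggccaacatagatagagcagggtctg
Tgtp2: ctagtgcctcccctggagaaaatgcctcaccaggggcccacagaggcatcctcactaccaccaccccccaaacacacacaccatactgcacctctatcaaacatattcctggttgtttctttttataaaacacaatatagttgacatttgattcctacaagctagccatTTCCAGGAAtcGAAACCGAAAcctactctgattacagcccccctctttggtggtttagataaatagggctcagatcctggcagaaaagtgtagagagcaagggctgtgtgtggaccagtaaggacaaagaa
Gbp7: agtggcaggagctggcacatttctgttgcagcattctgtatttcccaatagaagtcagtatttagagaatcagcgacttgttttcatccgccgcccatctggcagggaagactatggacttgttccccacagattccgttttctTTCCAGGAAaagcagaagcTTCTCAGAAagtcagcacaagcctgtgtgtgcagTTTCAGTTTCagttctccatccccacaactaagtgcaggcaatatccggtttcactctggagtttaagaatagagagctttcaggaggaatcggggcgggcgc

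In Irgm2 and Tgtp2 the GAS begins 75 and 81 bases before the start and the ISRE core 64 and 70 bases before it, so both lie in the same order 11 bases apart. Igtp has the same arrangement at 45 and 34 bases. So does Tgtp1, which was not called, at 88 and 77 bases, while the called Gbp2b and Gbp3 held no GAS. Gbp7 carries 2 GAS matches, 106 and 87 bases before the start, and 1 ISRE core at 53 on the other strand. Of 11 promoters of the list in the table, 10 held the ISRE core and 6 the GAS. Of the 7 whose genes were called higher, 7 held the ISRE core and 5 the GAS. The core was in 3.49% of all 27025 promoters in the table, in 3.29% of the 10522 promoters of the genes tested, in 8.44% of the 450 promoters of genes called higher and in 2.28% of the 615 of genes called lower. The GAS was in 8.47% of all promoters, 6.96% of those of the genes tested, 9.33% of those called higher and 8.46% of those called lower. The 2 motifs share the letters GAA and can overlap, and a match describes the letters only. Ncf1 also holds both in its promoter.

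Of 35 classical type I interferon antiviral genes 4 (11.4%) rose and none fell (median 0.24), where 4.25% of all genes rose, and 10 of the 35 were higher without overlap, where 13.9% of all genes were. None was called without p47phox-/- replicates 2 and 3. Ifit2, an RNA-binding antiviral protein, read 881, 979 and 721 against 1275, 1762 and 1755 (0.89, adjusted p = 0.0122), and Parp14, an ADP-ribosyltransferase, 4222, 2667 and 3714 against 5471, 5754 and 7487 (0.83, adjusted p = 0.012). The gp91phox-/- libraries were higher without overlap for both genes. Ifih1, the RNA sensor MDA5, was also called (0.67, adjusted p = 0.0405). The core element was present in 16 of 26 promoters of this list. Of 13 PYHIN genes only Ifi208 was called, and reads may be shared with its close paralogs. Calls that did not survive the loss of 1 library were Ifit2 (without p47phox-/- replicate 3, gp91phox-/- replicate 2 or 3), Parp14 (without gp91phox-/- replicate 3), Ifih1 (without WT replicate 1 or 3, p47phox-/- replicate 2 or 3, gp91phox-/- replicate 2 or 3).

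Chemokines divided by gene rather than by class. Cxcl10, an interferon-induced ligand of CXCR3, read 1972, 2367 and 2244 against 3912, 8135 and 7324 (log2 fold change 1.49 ± 0.23 (SE), adjusted p = 0.00158). Cxcl13, the ligand of CXCR5 that draws B cells, read 214, 131 and 74.3 against 617, 531 and 433 (log2 fold change 2.02 ± 0.35 (SE), adjusted p = 0.00394). Ccl5 read 678, 682 and 755 against 1327, 2815 and 4022 (log2 fold change 1.81 ± 0.30 (SE), adjusted p = 0.00308). In all 3 the gp91phox-/- libraries were higher without overlap. Ccl4 (1.04, adjusted p = 0.0105), Ccl12 (1.05, adjusted p = 0.0281), Cxcl9 (1.19, adjusted p = 0.0159) and Cxcl11 (4.33, adjusted p = 0.0473) also rose. Cxcl10 and Cxcl11 overlap Art3, and Ccl4 overlaps Ccl3, in the gene table.

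Lower in gp91phox-/- cells were Cxcl1, which draws neutrophils, at 14349, 17113 and 12365 against 4794, 9565 and 6466 (log2 fold change -1.12 ± 0.23 (SE), adjusted p = 0.00867), and Ccl24, which draws eosinophils, at 460.0, 803 and 742 against 207, 324 and 225 (log2 fold change -1.39 ± 0.29 (SE), adjusted p = 0.00967). The WT means were 4964 and 276, below each p47phox-/- library. Cxcl3 (-1.34, adjusted p = 0.0315), Cx3cl1 (-1.22, adjusted p = 0.0211) and Ccl17 (-4.02, adjusted p = 0.0377) fell too. In all, 3 of 14 CC chemokines rose and 3 fell (median 0.22), and 4 of 13 CXC and CX3C chemokines rose and 3 fell (median -0.04). Of 14 chemokine receptors 5 rose, among them Ccrl2, Cx3cr1 and Ccr2 described above, and 3 fell. Calls lost without 1 library, over these and the preceding chemokines, were Ccl4 (without gp91phox-/- replicate 2), Ccl12 (without p47phox-/- replicate 1 or 3, gp91phox-/- replicate 2 or 3), Cxcl9 (without gp91phox-/- replicate 2 or 3), Cxcl11 (without any WT library, p47phox-/- replicate 2 or 3, any gp91phox-/- library), Cxcl3 (without p47phox-/- replicate 2 or 3, gp91phox-/- replicate 1 or 2), Cx3cl1 (without p47phox-/- replicate 3, any gp91phox-/- library), Ccl17 (without any p47phox-/- library, any gp91phox-/- library).

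Feedback genes of NF-kB and immediate-early genes were partly higher. Tnfaip3, the ubiquitin editor A20 that restrains NF-kB, read 23479, 18814 and 21119 against 39109.9, 44717 and 42426 (log2 fold change 1.00 ± 0.13 (SE), adjusted p = 6.52e-04). Nfkbiz, an atypical inhibitor that promotes secondary response genes, read 16196, 13488 and 16701 against 32699, 30798 and 30815 (log2 fold change 1.03 ± 0.14 (SE), adjusted p = 9.00e-04). Both were without overlap and above their WT means of 16623 and 10604 in each gp91phox-/- library. Of 22 NF-kB genes 5 (22.7%) rose and 4 (18.2%) fell (median -0.03), against 4.25% and 6.38% of all genes. The falls were the subunits and inhibitors Nfkb1 (-0.58, adjusted p = 0.0416), Relb (-0.47, adjusted p = 0.0394), Bcl3 (-0.58, adjusted p = 0.0293) and Nfkbib (-0.55, adjusted p = 0.0436). Those 4 falls were lost without 1 library in these cases: Nfkb1 (without any WT library, any p47phox-/- library, gp91phox-/- replicate 1 or 2), Relb (without WT replicate 3, p47phox-/- replicate 2 or 3, any gp91phox-/- library), Bcl3 (without p47phox-/- replicate 2 or 3, any gp91phox-/- library), Nfkbib (without any WT library, p47phox-/- replicate 1 or 2, any gp91phox-/- library).

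Of 32 immediate-early and dissociation-stress genes, known also to respond to tissue dissociation, 7 (21.9%) rose and 1 (3.1%) fell (median 0.36). The shares over all genes were 4.25% and 6.38%. The summed level of the list overlapped, at 575424 to 834576 in p47phox-/- and 753367 to 1213290 in gp91phox-/- libraries. Btg2, an antiproliferative early gene, read 6428, 8616 and 7165 against 22301, 18177 and 16577, and WT 6842, 7292 and 7893 (log2 fold change 1.36 ± 0.15 (SE), adjusted p = 1.75e-04). Fosl2, an AP-1 subunit, read 14390.3, 11403 and 13725 against 26703, 24614 and 21161 (log2 fold change 0.88 ± 0.14 (SE), adjusted p = 0.00248), and the nuclear receptor Nr4a3 5825, 3816 and 4679 against 9270.0, 10065 and 8739.6 (log2 fold change 0.99 ± 0.17 (SE), adjusted p = 0.00351). The gp91phox-/- libraries were all higher for the 3. Egr2 rose too (0.84, adjusted p = 0.00768), and Fosl1 fell (-1.27, adjusted p = 0.023), a call lost in Fosl1 (without p47phox-/- replicate 3, gp91phox-/- replicate 1 or 2).

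Genes of the response to oxidants were counted in 2 lists. Nfe2l2, the gene of the NRF2 transcription factor, read 12050.3, 12264 and 11793 against 24843, 24858 and 23308, with a WT mean of 11822 (log2 fold change 1.02 ± 0.12 (SE), adjusted p = 3.30e-04). Its groups did not overlap and each was uniform. Of 19 NRF2 target and glutathione genes 2 rose and 2 fell (10.5% each way, median -0.19): Gclc, the catalytic subunit that limits glutathione synthesis, fell from 1823, 1771 and 1678 to 1267, 1133 and 1145 (log2 fold change -0.57 ± 0.12 (SE), adjusted p = 0.00971), and Sqstm1, the autophagy receptor p62, from 63169.7, 79083 and 74248 to 45262, 44577 and 42643 (log2 fold change -0.70 ± 0.16 (SE), adjusted p = 0.0159). Slc7a11, the cystine carrier, read 1302, 428 and 749.8 against 1221, 2363 and 4033 (1.60, adjusted p = 0.031). Of 20 superoxide and peroxide scavengers Sod2, the mitochondrial dismutase (0.64, adjusted p = 0.0381), rose and Txnrd2 (-0.61, adjusted p = 0.0262) fell (median 0.04), 5% each way and near the 4.25% and 6.38% of all genes. The calls that depended on a single library were Gclc (without gp91phox-/- replicate 2), Sqstm1 (without p47phox-/- replicate 3, gp91phox-/- replicate 2 or 3), Slc7a11 (without p47phox-/- replicate 2 or 3, gp91phox-/- replicate 2 or 3), Sod2 (without WT replicate 1 or 3, p47phox-/- replicate 2 or 3, gp91phox-/- replicate 2 or 3), Txnrd2 (without p47phox-/- replicate 3, any gp91phox-/- library).

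Acute-phase and antimicrobial genes were higher where they were called. Saa3, the serum amyloid A that macrophages make, read 505, 509 and 396 in p47phox-/-, 1419, 4817 and 13017 in gp91phox-/- and 4575, 17911 and 3281 in WT libraries (log2 fold change 3.25 ± 0.70 (SE), adjusted p = 0.0121). The gp91phox-/- libraries exceeded those of p47phox-/- but differed widely among themselves, and WT values also lay above p47phox-/-. Of 12 measured members 5 rose and none fell (median 2.15), with none called without p47phox-/- replicates 2 and 3. Hp, haptoglobin (2.34, adjusted p = 0.0496), Slpi, a protease inhibitor (1.77, adjusted p = 0.046), Cp, ceruloplasmin (0.59, adjusted p = 0.0293), and Saa1 (4.76, adjusted p = 0.0384), which shares sequence with Saa2, made up the 5. Lcn2, which sequesters bacterial siderophores, read 22.7, 11.4 and 11.4 against 40, 40.4 and 128 and did not pass (1.97, adjusted p = 0.0808). The summed level of the list overlapped, at 176803 to 248646 in p47phox-/- and 216314 to 239293 in gp91phox-/- libraries. Some calls ended when 1 library was removed: Hp (without WT replicate 1 or 3, any p47phox-/- library, gp91phox-/- replicate 2 or 3), Slpi (without any WT library, any p47phox-/- library, gp91phox-/- replicate 2 or 3), Cp (without p47phox-/- replicate 2 or 3, gp91phox-/- replicate 1 or 2), Saa1 (without WT replicate 1, p47phox-/- replicate 2 or 3, any gp91phox-/- library).

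Complement, Fc and pattern receptors showed scattered rises. Cfb, factor B of the alternative pathway, read 3741, 3559 and 4147 against 8388, 10923 and 16924 (log2 fold change 1.60 ± 0.23 (SE), adjusted p = 0.00129), so that with C3 and Itgam 3 of 18 complement genes rose, while the receptor Cr2 and the regulator Cd55, both also on the B cell list, fell (median 0.02). Fcgr4, an activating IgG receptor, read 3047, 4494 and 3337 against 7081, 9647 and 8273 (log2 fold change 1.21 ± 0.18 (SE), adjusted p = 0.0014), and the inhibitory Fcgr2b 15971, 15143 and 16136 against 29289, 25779 and 22369.6 (log2 fold change 0.70 ± 0.14 (SE), adjusted p = 0.00737). These receptors did not overlap between groups. With Fcgr1, 3 of 9 Fc receptor genes rose, and the 2 that fell were Fcmr and Fcer2a. Of 21 C-type lectin genes 6 rose and 2 fell (median 0.03), with Clec4a1 at 5676, 5302 and 5543 against 9016, 8399 and 8948 (log2 fold change 0.67 ± 0.11 (SE), adjusted p = 0.00248). Of 20 Toll-like receptor genes Tlr4 (0.83, adjusted p = 0.0216) and Tlr1 (0.80, adjusted p = 0.0252) rose, and Trem1, an amplifier of their signal chosen after its values were seen, read 742, 720.1 and 442 against 1393, 1923 and 3805 (log2 fold change 1.81 ± 0.31 (SE), adjusted p = 0.00342). Single-library losses ended these calls: Tlr4 (without p47phox-/- replicate 2, gp91phox-/- replicate 1 or 3), Tlr1 (without p47phox-/- replicate 3, gp91phox-/- replicate 2 or 3).

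MHC class II genes showed no common shift. Of 17 measured genes 4 fell and 1 rose (median 0.06), and the summed level overlapped. The 4 that fell were H2-Eb2 (730.2, 1138 and 553 against 44.6, 76.6 and 47.4; -3.80, adjusted p = 2.92e-05), H2-Ob (2871, 3986 and 1921 against 742, 698 and 486; -2.15, adjusted p = 5.77e-04), H2-DMb2 (-1.47, adjusted p = 0.00219) and H2-Oa (-1.60, adjusted p = 0.0168). H2-Oa and H2-Ob form the H2-O chaperone known from B cells, and 27 of the 30 B cell genes fell in the same libraries; the part of B lineage RNA in these 4 was not tested. All 4 were also called without p47phox-/- replicates 2 and 3, with adjusted p from 0.00286 to 0.0473. The costimulatory ligand Cd80 was the rise (0.58, adjusted p = 0.0252), and of 22 MHC class I genes only Pdia3, a chaperone of class I loading, was called (0.44, adjusted p = 0.0369). Removal of 1 library ended the calls of H2-Oa (without gp91phox-/- replicate 3), Cd80 (without p47phox-/- replicate 2 or 3, gp91phox-/- replicate 2 or 3), Pdia3 (without WT replicate 1, any p47phox-/- library, any gp91phox-/- library).

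Lipid genes held some of the larger falls outside the B cell, plasma cell and T cell lists. Scd1, the desaturase that makes monounsaturated fatty acids, read 2989.7, 2834 and 1699 in p47phox-/-, 95.5, 82.7 and 76.9 in gp91phox-/- and 2136, 5397 and 3523 in WT libraries. It was low in each gp91phox-/- library and nowhere else (log2 fold change -4.83 ± 0.30 (SE), adjusted p = 2.41e-06). Its neighbour in function Scd2 went the other way, at 1029.9, 746 and 1145 against 2030.0, 2143 and 1659 (log2 fold change 1.01 ± 0.20 (SE), adjusted p = 0.00718). Of 26 cholesterol and fatty acid genes 4 rose and Scd1 fell (median 0.16).

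Lpl, lipoprotein lipase, read 5274, 4384 and 4201 against 1223, 1368 and 1059 (log2 fold change -1.92 ± 0.33 (SE), adjusted p = 0.0036), and Lgals3, galectin 3, 36509, 48112 and 38790.1 against 18656, 21238 and 17399 (log2 fold change -1.10 ± 0.15 (SE), adjusted p = 0.00101). Cd36, a scavenger receptor for lipids, read 19002, 12238 and 21741 against 7396, 7705 and 7154 (log2 fold change -1.21 ± 0.21 (SE), adjusted p = 0.0036). The gp91phox-/- libraries were lower without overlap for all 3, which share a list of 18 lipid-associated macrophage genes in which 3 fell and 2 rose (median -0.21). Of 23 efferocytosis and scavenger genes Itgb3, the integrin β3 subunit, fell from 526, 406 and 299 to 83.7, 76 and 67.1 (log2 fold change -2.39 ± 0.30 (SE), adjusted p = 5.43e-04), with Cd36 and Colec12 (-1.15, adjusted p = 0.0125), and Msr1, scavenger receptor A, rose from 8126, 6437 and 8034 to 12084, 13395 and 14212 (log2 fold change 0.82 ± 0.13 (SE), adjusted p = 0.00216).

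Among repair genes, Nrg1, an epidermal growth factor family ligand that supports epithelium, read 353, 166 and 265 against 663, 1099.9 and 1477 (log2 fold change 2.03 ± 0.30 (SE), adjusted p = 0.00143), with a WT mean of 1271. Tnfsf15, the cytokine TL1A, chosen after its values were seen, read 101, 83.5 and 35.2 against 404, 364 and 349 (log2 fold change 2.46 ± 0.40 (SE), adjusted p = 0.00269). Smad6, an inhibitor of BMP signals, read 270.3, 275 and 245 against 654, 556 and 527 (log2 fold change 1.13 ± 0.19 (SE), adjusted p = 0.00307). For all 3 the p47phox-/- libraries were the lower group without overlap. Of 23 alternative activation and repair genes 3 rose and 3 fell (median -0.38), or 13% each way, against 4.25% and 6.38% of all genes. The same counts held for 23 TGF-β and IL-10 pathway genes (median 0.09). Among these, Tgfb1 itself read 20121, 24510.1 and 22045 against 15996, 16568 and 16465 (-0.44, adjusted p = 0.0377). Calls lost without 1 library here and among the lipid genes were Tgfb1 (without WT replicate 1 or 3, p47phox-/- replicate 2 or 3, any gp91phox-/- library), Colec12 (without p47phox-/- replicate 3, gp91phox-/- replicate 2).

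Metabolic and housekeeping lists differed in their counts. None of 36 nuclear-encoded oxidative phosphorylation genes was called (median -0.01), and Atp5b and Atp5a1, subunits of the ATP synthase, had log2 fold changes of -0.02 and -0.00. Of 25 glycolysis and hypoxia genes 4 (16%) rose (median 0.18), against 4.25% of all genes: Hif1a, the hypoxia factor, read 5170.3, 2853 and 4476 against 7092, 8829 and 9313 (log2 fold change 1.05 ± 0.21 (SE), adjusted p = 0.00931), the glucose carrier Slc2a1 3269, 3854 and 3434 against 5480.3, 6216 and 7053 (log2 fold change 0.82 ± 0.16 (SE), adjusted p = 0.00704), and Ero1l (1.07, adjusted p = 0.00353) and Vegfa (0.73, adjusted p = 0.0105) rose too. Of 20 iron and heme genes 2 rose, Hp and Cp, which are also acute-phase genes. Of 30 lysosomal genes only Ctsc, cathepsin C, was called (61744, 50300.4 and 59977 against 87810.1, 91795 and 89671; 0.65, adjusted p = 0.0233). Of 33 cell cycle genes 2 (6.06%) rose, near the 4.25% of all genes, and none fell. Mki67, which marks dividing cells, rose from 3017, 1546 and 2186 to 4406, 4404 and 6281 (log2 fold change 1.19 ± 0.24 (SE), adjusted p = 0.00915), and Bub1b (0.98, adjusted p = 0.0311) rose. The list median was 0.74, against 0.02 over all genes. Its summed level overlapped, at 23704, 21376 and 25102 in p47phox-/- and 24473, 27406 and 45243 in gp91phox-/- libraries. Neither cell cycle gene was called without p47phox-/- replicates 2 and 3, with adjusted p of 0.208 and 0.35. Leaving out 1 library ended some of these calls: Vegfa (without gp91phox-/- replicate 2), Ctsc (without p47phox-/- replicate 2 or 3, gp91phox-/- replicate 2 or 3), Bub1b (without p47phox-/- replicate 2 or 3, gp91phox-/- replicate 2 or 3).

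Endoplasmic reticulum chaperones rose in part. Of 24 unfolded protein response genes 7 (29.2%) rose and 2 (8.33%) fell (median 0.31), against 4.25% and 6.38% of all genes. The summed level of the list overlapped, at 295570 to 318641 in p47phox-/- and 299974 to 359913 in gp91phox-/- libraries. Pdia4, a disulfide isomerase, read 3111, 3494 and 3338 against 5216, 5422 and 5227 (log2 fold change 0.68 ± 0.12 (SE), adjusted p = 0.00425), and Hyou1, a chaperone, 5813, 4668 and 6223 against 9018, 8965 and 7397 (0.61, adjusted p = 0.0158). The falls were Atf4, the factor of the integrated stress response, at 10762, 12611 and 11178 against 6666, 8306 and 6818 (log2 fold change -0.67 ± 0.14 (SE), adjusted p = 0.00931), and its target Trib3 at 32.7, 102 and 72.4 against 14.6, 9.05 and 5.37 (-2.67, adjusted p = 0.0135). No overlap was seen in these 4. Among 17 matrix metalloproteinases and inhibitors Mmp13 rose (0.74, adjusted p = 0.0406) and Mmp19, Timp2 and Timp3 fell (log2 fold change -0.60, -0.92 and -0.95). Of 28 adhesion genes 5 rose, among them Itgal, the LFA-1 subunit, at 7516, 5914 and 6929.9 against 10879, 9455 and 10772 (log2 fold change 0.62 ± 0.13 (SE), adjusted p = 0.00943), and 4 fell. Calls that did not survive the loss of 1 library were Hyou1 (without gp91phox-/- replicate 1 or 2), Trib3 (without gp91phox-/- replicate 3), Mmp13 (without WT replicate 1, p47phox-/- replicate 1 or 3, gp91phox-/- replicate 2 or 3), Mmp19 (without any p47phox-/- library, gp91phox-/- replicate 1 or 2), Timp2 (without p47phox-/- replicate 3, gp91phox-/- replicate 2 or 3), Timp3 (without p47phox-/- replicate 1 or 3, gp91phox-/- replicate 1 or 2).

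Over all genes fewer were called without p47phox-/- replicates 2 and 3, and most lists held fewer calls too. That fit holds a lone p47phox-/- library, and the list counts below do not show that a list differs from all genes. Of the monocyte genes 2 were then higher and 1 lower, of the NF-kB genes 2 higher, of the immediate-early genes 2 higher, and of the unfolded protein response genes 1 higher. Chemokine receptors held 3 higher and 3 lower calls, CC chemokines 1 and 1, and CXC chemokines 1 higher. The eicosanoid list held 2 higher, the epithelial list 3 higher, the fibroblast list 2 lower and the lipid-associated list 2 lower, while the C-type lectin list held 1 lower, the adhesion list 2 lower, and the glycolysis and repair lists none.

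**Figure D4:**
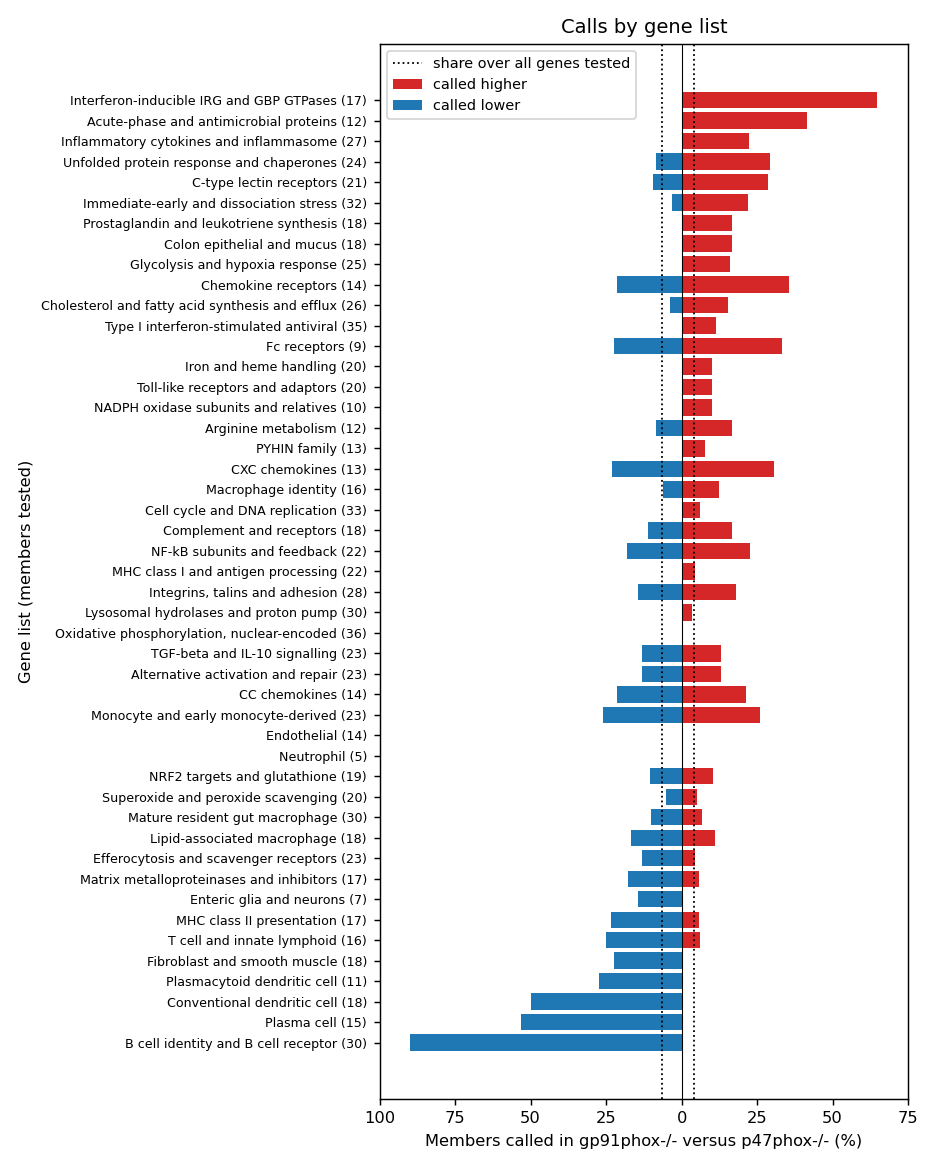
Bars give, for each gene list, the percentage of its measured members called higher (red) or lower (blue) in gp91phox-/- cells, with the background of 4.25% and 6.38% over all 13727 genes as dotted lines. B cell genes reach 90% lower and the IRG and GBP list 64.7% higher.

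The neighbourhood of the Ncf1 gene was also counted. Within 10 Mb of Ncf1, 212 genes were measured, of which 7 were called higher and 17 lower, or 11.3%, against 10.6% of all genes. Across the autosomes the share called ran from 8.58% on chromosome 2 to 14.7% on chromosome 6, with chromosome 19 next at 13.8%. Chromosome 6 had 38 higher and 73 lower calls. It holds the immunoglobulin kappa segments, whose part in its share was not tested. Calls also depended on level: 4.47% of genes with a mean under 50 were called, 9.93% of those between 50 and 500 and 13.5% of those above 500.

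**Figure D5:**
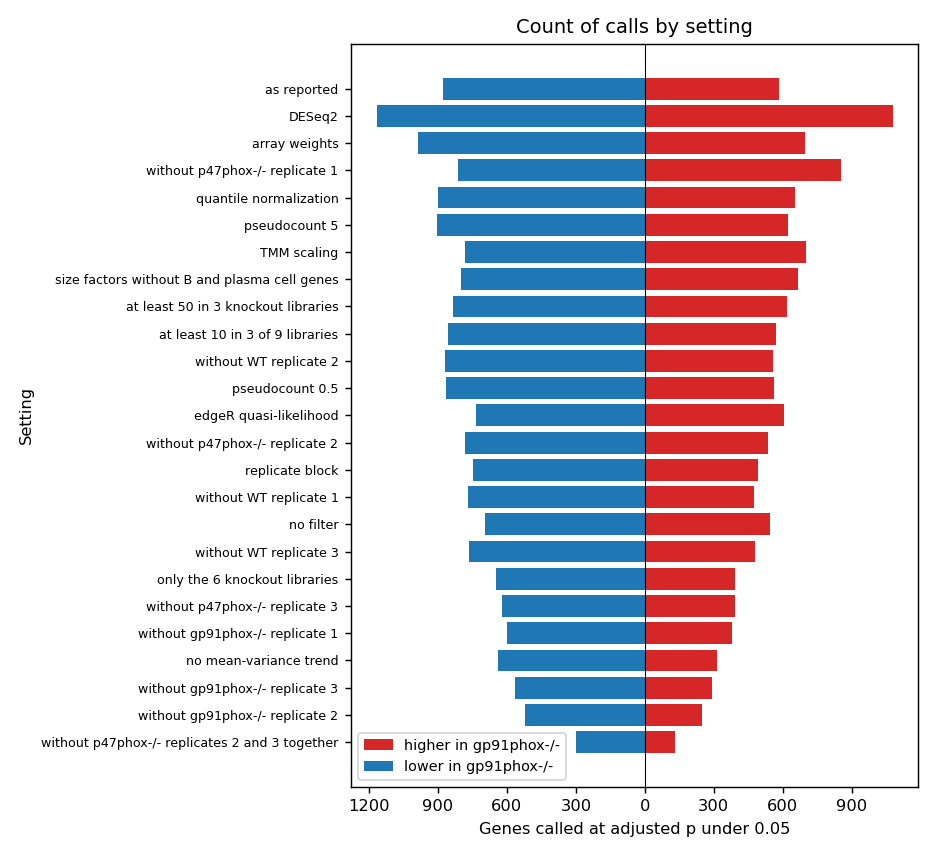
Bars give the number of genes called higher (red, to the right) and lower (blue, to the left) in gp91phox-/- cells under the reported fit and each alternative. The counts run from 433 calls without p47phox-/- replicates 2 and 3 to 2244 with DESeq2.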

How the data were processed

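RNA from sorted colon macrophages was sequenced in 9 libraries, 3 each of WT, p47phox-/- and gp91phox-/- mice. Extraction used the RNeasy Micro kit and sequencing gave paired ends on a NovaSeq, per the labels' protocols. Reads were demultiplexed with bcl2fastq 2.19, trimmed with Cutadapt, mapped to mm10 with STAR 2.5.2b and counted with featureCounts, per the same protocols. DESeq2 is listed in the submitters' processing notes. The authors deposited normalized counts, treated here as a signal: reads per gene over a size factor of 1.05 to 1.66 for the library. The strand and the gene annotation are not given in the sources used here. Values were whole multiples of 1 step per library, so whole reads were recovered for 100% of values (tolerance 0.01). Recovered reads were 31141107 to 52797368 per library, and depth limits genes listed at 0 more than abundant ones.

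Genes with a normalized count of at least 10 in at least 3 of the 6 knockout libraries were kept. They were tested with limma 3.58.1 on log2(normalized count + 1), in 1 fit of all 9 libraries and 3 groups with a mean-variance trend, 2-sided, with Benjamini-Hochberg adjustment over 13727 genes and a threshold of 0.05. Count models on the recovered reads served as alternatives: edgeR 4.0.16 (quasi-likelihood) called 1339 genes and DESeq2 1.42.0 called 2244. Tested on simulated data for this comparison over 13727 genes, the fit recovered 55.1% of genes changed 2-fold and 91.4% of those changed 4-fold, with 5 false calls among 149. The simulation gave all groups the same spread and changed only genes with a mean of at least 50. The real groups differed, with a median log2 SD of 0.319 in p47phox-/- and 0.199 in gp91phox-/- libraries. These rates therefore need not hold for the real data. Because WT libraries share the fit and the table, WT values are given side by side only.

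The comparison and 48 gene lists were chosen with earlier results of these data known. Genes named by rule were the 12 largest changes per direction (called, no overlap, mean over the knockout libraries at least 50), leaving out immunoglobulin and T cell receptor segments and unnamed genes, the 10 largest per direction outside the B cell and plasma cell lists, the 5 smallest p per direction, the oxidase subunits, and up to 4 called members per direction of each list (for a list without calls, its 2 most abundant members). From the lists the text names mostly members whose call held when each library was left out in turn. Other members of a list, and genes marked so, were chosen after their values were seen. A list is described by counts and its median, with no set test. Coordinates and promoters are from RefSeq, GRCm38.p6, and 13482 of the 13727 genes (98.2%) matched its gene table by symbol. Ratios of reads carry 95% intervals for counting error only. Protein sequences were not used here, and some genes that the rule names are not reported here. Figures were drawn with matplotlib 3.10.9.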

Additional observations from a re-analysis of the deposited data

How the results depend on the processing

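The count of 1459 calls was within 1.5 times under most alternatives. It moved further with DESeq2 (2244 calls, 1078 higher), without the mean-variance trend (951 calls, 313 higher) and without p47phox-/- replicates 2 and 3 together (433 calls, 132 higher and 301 lower). Leaving out 1 library at a time gave 769 to 1665 calls, 247 to 853 of them higher and 522 to 868 lower; the fewest followed from leaving out gp91phox-/- replicate 2 and the most from leaving out p47phox-/- replicate 1, where higher calls outnumbered lower ones. Without gp91phox-/- replicate 3 there were 857 calls, and without replicate 1 there were 379 higher calls. The higher share of calls was 40.0% as reported, 47.2% with TMM scaling and 48.0% with DESeq2; TMM moved the median log2 fold change of all genes to 0.06. The cause of these differences was not tested, except that leaving out libraries lowers the number of samples.

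Ncf1 stayed called in all 24 alternatives. Of 222 named called genes, 89 were called in each alternative and 135 in each fit that left out 1 library, and none changed sign; 98 stayed called without p47phox-/- replicates 2 and 3 together. Replicate numbers did not pair the libraries: deviations of same-numbered gp91phox-/- and p47phox-/- libraries correlated at -0.036, 0.037 and -0.033. A fit with a replicate block gave 1243 calls, 494 higher and 749 lower.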
